A study of Mus musculus with 25 samples.

Results

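Mouse retinas exposed to tunicamycin were compared with mouse retinas exposed to Ceapin-A7 by bulk RNA sequencing, 5 libraries in each group, which are 10 of the 25 libraries of the series. The libraries were chosen by their treatment labels, and the genes by a minimum level: of 19102 genes listed in both tables, the 12786 with at least 1 FPKM (fragment counts divided by transcript length and by library size) in 5 or more of the 10 libraries were tested. All mice were wild type, of the C57BL/6J strain according to the series text, and were injected into the vitreous of both eyes at postnatal day 30. Both agents were used at 10 µM, with an injected volume of 1 µL per eye and DMSO at 0.05 to 0.1% in saline, and the column names of both groups carry a collection time of 24 h. The other 15 libraries are 2 sets of 5 from vehicle-injected eyes and 5 of the ATF6 activator AA147. The vehicle columns carry no time, the vehicle labels say PBS where the protocol says saline with DMSO, and the series text also names 3 and 7 days. Vehicle set 2, whose table lists the same genes as the other 2 tables used here, is given beside the comparison as the vehicle level and is not part of the test. Each library is a whole retina with the cornea and lens removed, so a lower level of a gene in such bulk tissue can mean fewer cells of a type or less RNA per cell, and these cannot be told apart. Whether each library is a different mouse is not given in the sources used here, so p-values cover the spread among libraries only, and part of it may be technical.

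Tunicamycin blocks the enzyme encoded by Dpagt1, which attaches the first sugar of the N-linked glycan to its lipid carrier. Glycoproteins then misfold in the endoplasmic reticulum (ER) and set off the unfolded protein response, which has 3 sensors. ATF6 travels to the Golgi, where the proteases encoded by Mbtps1 and Mbtps2 cut it and free a transcription factor that raises ER chaperone genes. IRE1, encoded by Ern1, splices the Xbp1 transcript, and PERK, encoded by Eif2ak3, phosphorylates eIF2 alpha and so favours translation of ATF4, which raises genes of amino acid supply and of stress. Ceapin-A7 holds ATF6 alpha in the ER and keeps it from reaching the Golgi, without acting on the other 2 sensors. The comparison therefore sets an agent that starts ER stress against an agent that blocks a single arm of the response to it. Neither group received both agents, so it does not measure how Ceapin-A7 acts on a stressed retina.

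ATF6 and ATF4 are known to bind short promoter elements, and these are shown for the genes on which the results turn. The ER stress response element (ERSE) was searched for as CCAAT, 9 bases of any kind and CCACG, on both strands, in RefSeq promoter windows of build GRCm38.p6 that run from 250 bases before to 50 bases after each gene's start. Capitals mark the element, 15 flanking bases are shown on each side, and the sequence is written along the gene's own strand. Where the element lies on the opposite strand it begins with CGTGG and ends with ATTGG.

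Hspa5, chr2:34772010-34772058, + strand: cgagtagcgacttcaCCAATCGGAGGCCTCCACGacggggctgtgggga
Dnajc3, chr14:118937812-118937860, + strand: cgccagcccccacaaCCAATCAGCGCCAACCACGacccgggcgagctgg
Pdia6, chr12:17266476-17266524, + strand: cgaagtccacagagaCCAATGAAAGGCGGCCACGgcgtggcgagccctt
Derl3, chr10:75893227-75893275, + strand: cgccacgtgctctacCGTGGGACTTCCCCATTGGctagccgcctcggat
Creld2, chr15:88819505-88819553, + strand: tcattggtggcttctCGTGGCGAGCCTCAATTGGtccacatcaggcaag
Hsp90b1, chr10:86705518-86705566, − strand: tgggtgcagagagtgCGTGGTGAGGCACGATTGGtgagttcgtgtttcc

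The element was found in 39 of 32851 promoter windows (0.119%) and in 19 of the 10202 tested genes that had a window (0.186%). It was found in 9 of the 20 genes of the ER chaperone and ATF6 list that had a window, and in 6 of the 12 of these that were called, which are the 6 genes shown. That list was drawn up from knowledge of ATF6 targets, which rests in part on such elements, so its share is a description. Among genes called higher with tunicamycin the element was found in 8 of the 334 genes with a window, and among genes called lower in 0 of 124. A gene was counted if any of its windows held the element. The element bound by C/EBP and ATF4 dimers was searched for as TGATGNAA on both strands. It was found in 3.97% of all windows and in 266 of the 10202 tested genes with a window. In the PERK and ATF4 list it was found in 5 of the 17 genes with a window, and in 4 of the 14 of these that were called. On the opposite strand this element reads TTNCATCA. Of the called members it is printed for Chac1, which encodes an enzyme that degrades glutathione, the transcription factor gene Atf3, and Nupr1, a stress-induced nuclear protein. The match of the other called member, Trib3, lies after the start and is not printed. Asns, asparagine synthetase, is also printed and belongs to the list of amino acid and one-carbon synthesis.

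Chac1, chr2:119351034-119351071, + strand: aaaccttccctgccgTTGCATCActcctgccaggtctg
Asns, chr6:7693210-7693247, − strand: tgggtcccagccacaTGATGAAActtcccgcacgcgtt
Atf3, chr1:191183421-191183458, − strand: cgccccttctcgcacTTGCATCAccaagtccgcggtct
Nupr1, chr7:126625558-126625595, − strand: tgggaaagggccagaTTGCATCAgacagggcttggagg

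A match shows only that these letters stand in the window, and the files hold no measure of binding.

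Pearson correlations between libraries across the tested genes, on log2(FPKM + 1), ran from 0.947 to 0.993 within tunicamycin, from 0.983 to 0.995 within Ceapin-A7 and from 0.952 to 0.989 between the groups. The SD between libraries was larger in tunicamycin for 9661 of the 12786 genes (75.6%), with a median SD of 0.118 against 0.0756 on the log2 scale. All 5 tunicamycin libraries and Ceapin-A7 libraries 1 to 3 expressed the Y-linked gene Ddx3y, at 9.84 to 17.5 FPKM, and Ceapin-A7 libraries 4 and 5 listed it at 0, so the groups are unbalanced in the sex of the tissue. In vehicle set 2, 4 of the 5 libraries listed Ddx3y at 0. Lens genes varied widely within both groups. Cryaa, a lens crystallin, stood at 6234, 2656, 0.97, 52 and 2737 FPKM in tunicamycin libraries 1 to 5 and at 3973, 29, 261, 28.6 and 1994 FPKM in Ceapin-A7 libraries 1 to 5, and the groups overlapped. Nr2e3, a transcription factor gene of rods, was high in every library, at 247 to 302 FPKM with tunicamycin and 321 to 417 FPKM with Ceapin-A7, as the retina label requires. Low values of the tables step in a way that puts the depth at about 15.2 to 24.25 M fragments in the 10 libraries.

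At an adjusted p below 0.05 (limma, two-sided, Benjamini-Hochberg over all genes tested) 595 genes differed between the groups, which is 4.65% of those tested. Of these, 428 were higher with tunicamycin (3.35%) and 167 were lower (1.31%). Where genes are said below to rise or fall, this means higher or lower with tunicamycin than with Ceapin-A7, not a change from vehicle. The median difference over all tested genes was 0.01 on the log2(FPKM + 1) scale, the scale of every difference below, always as tunicamycin minus Ceapin-A7 and with its SE. It was 0.37 over the genes called higher and -0.37 over those called lower, and 54 genes were at least 2-fold higher and 18 at least 2-fold lower on that scale, which understates the change of low genes. In 386 of the 428 and in 158 of the 167 the libraries of the groups did not overlap. Without regard to any call, the 5 tunicamycin libraries all stood above the 5 Ceapin-A7 libraries in 870 genes (6.8%) and all below in 345 (2.7%). The mean of vehicle set 2 lay between the 2 group means for 354 of the genes called higher and 124 of those called lower, and over all 428 and 167 it lay nearer the Ceapin-A7 mean than the tunicamycin mean for 301 and 125. A minimum level decides which genes are tested at all. With at least 1 FPKM in all 5 tunicamycin and no Ceapin-A7 library there were 11 genes, of which 10 were called, and with the reverse there were 17, of which 16 were called; such genes enter the test only through the group in which they are high and had groups apart by that choice, so a list's count that includes them is a description. Among the listed genes described here these are Derl3, Gdf15, Adm, Apln and Icam1, which entered through tunicamycin, and Sox17, Abcc9, Higd1b, Kcnj8 and Notch3, which entered through Ceapin-A7. Of genes in no list, Cdsn entered through tunicamycin, and Pglyrp1 and Thbd through Ceapin-A7.

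These counts depended on which libraries entered. Without tunicamycin library 3 they rose to 1889 genes, and without library 1 to 759. Without tunicamycin library 2, 4 or 5 they fell to 213, 198 and 371. Without Ceapin-A7 library 1, 2, 3, 4 or 5 they fell to 178, 157, 235, 230 and 170, and without both Ceapin-A7 libraries that list Ddx3y at 0 to 84 (50 higher, 34 lower). All 595 genes kept their direction in each of these fits. Scaling by median ratios or by quantiles brought the number higher and lower to 264 and 212, or to 238 and 207, so the higher share was 55.5% or 53.5% in place of 71.9%.

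**Figure D1:**
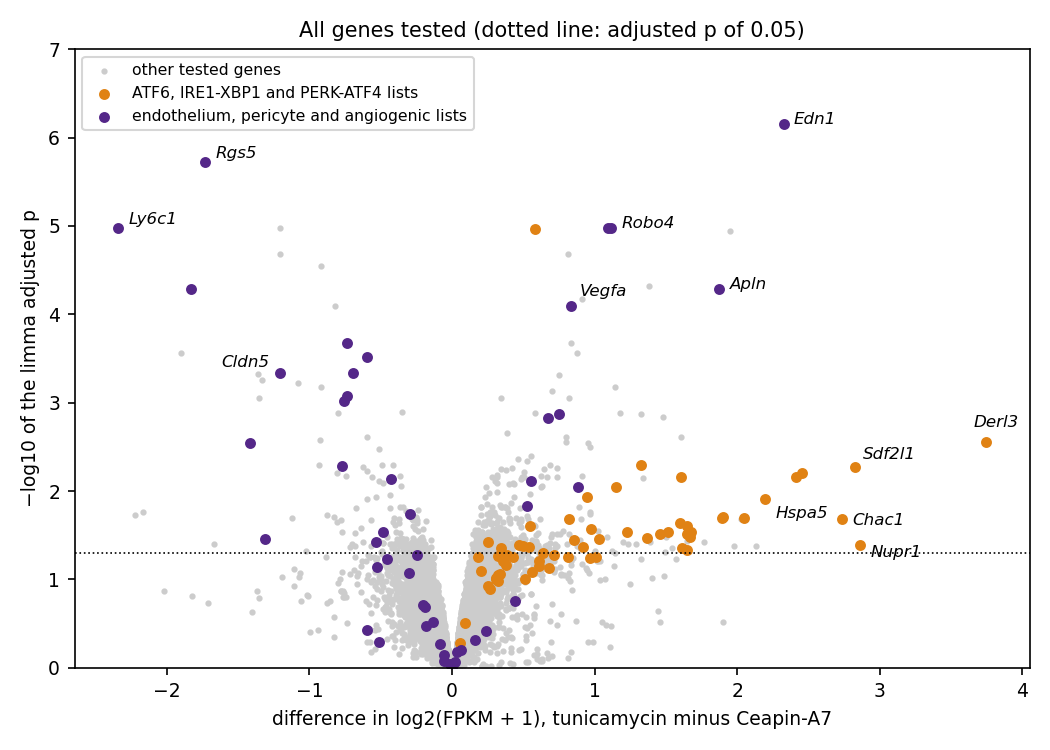
Each point is 1 of the 12786 genes tested, with the log2(FPKM + 1) difference between tunicamycin and Ceapin-A7 on the x axis and −log10 of the limma adjusted p on the y axis. Orange points are the ATF6, IRE1-XBP1 and PERK-ATF4 lists, purple points the endothelium, pericyte and angiogenic lists and gray points all other genes; the genes of smallest adjusted p, Edn1 and Rgs5, are vessel genes, whereas Derl3, with the largest difference of 3.75, lies lower on the y axis.

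**Figure D2:**
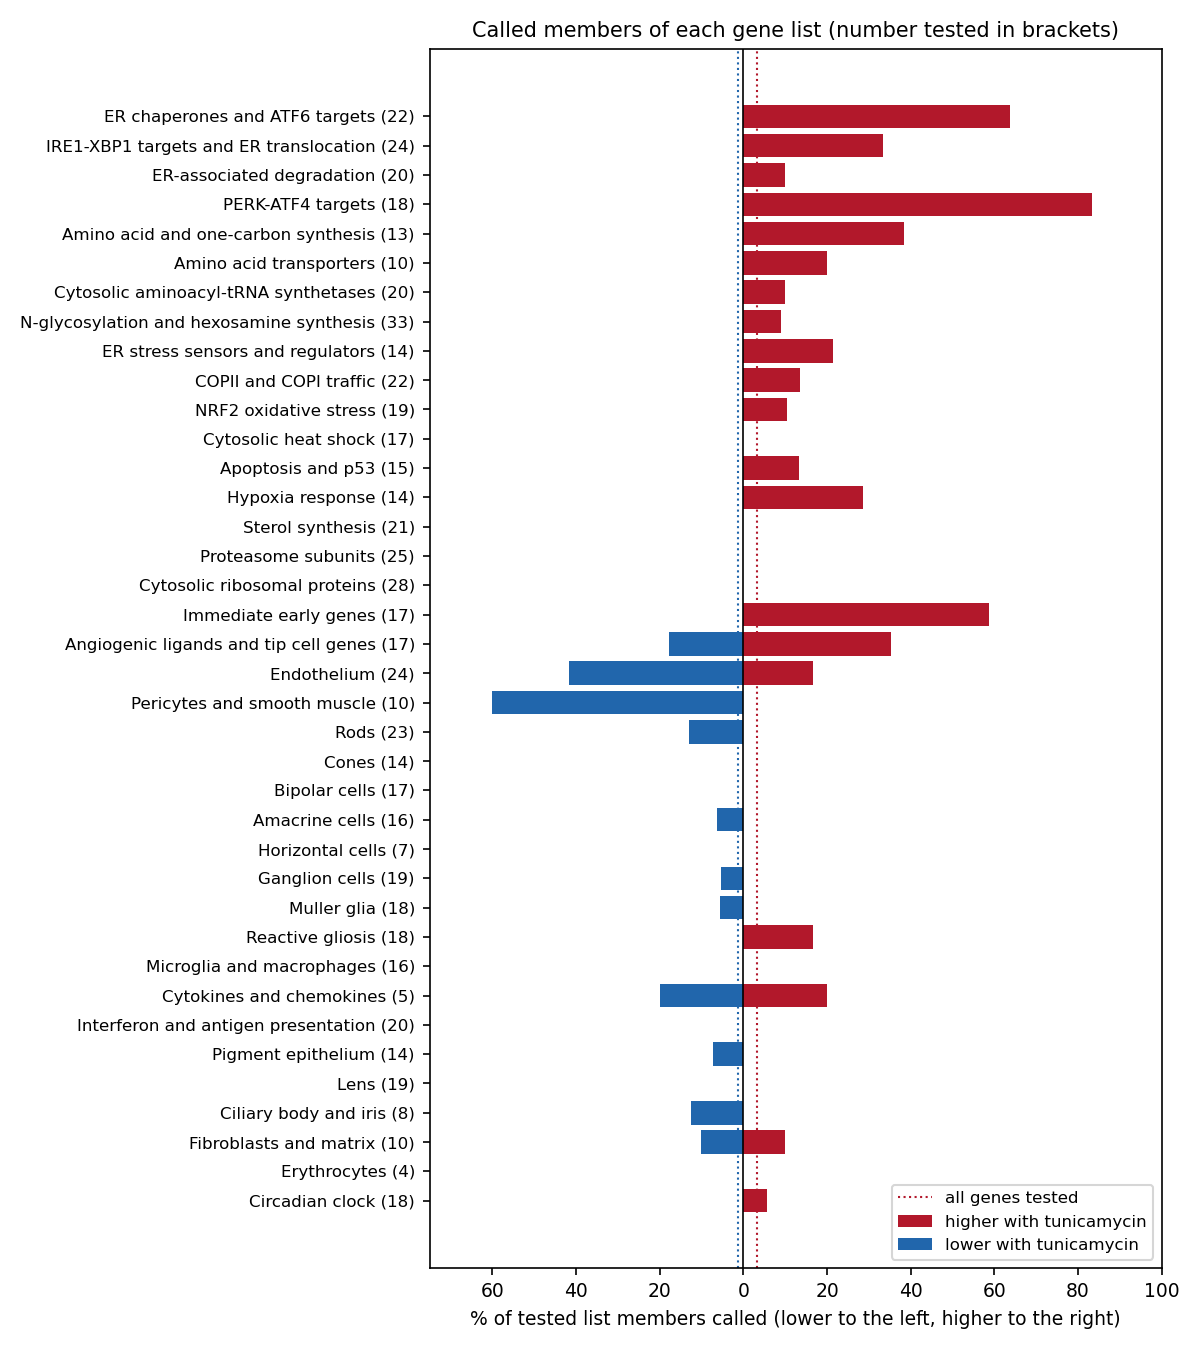
Bars give the percentage of the tested members of each gene list that were called, with the lists on the y axis, the number tested in brackets, red bars to the right for higher and blue bars to the left for lower with tunicamycin, and dotted lines at the 3.35% and 1.31% of all genes tested. The PERK-ATF4 list has the longest red bar (15 of 18) and the pericyte list the longest blue bar (6 of 10, of which 4 genes were tested only through the Ceapin-A7 libraries).

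ER chaperone genes were higher with tunicamycin. Of the 22 genes in the list of ER chaperones and ATF6 targets, all tested, 14 rose and 0 fell (against 3.35% and 1.31% of all genes), and the list's median difference was 1.13 against 0.01 over all genes. Hspa5, which encodes BiP, the main ER chaperone of the HSP70 family, stood at 1513, 495, 229, 581 and 427 FPKM in tunicamycin libraries 1 to 5 and at 106, 113, 132, 109.9 and 117 FPKM in Ceapin-A7 libraries 1 to 5. Library 1 of tunicamycin was by far the highest, library 3 the lowest, and the groups did not overlap. The difference was 2.2 ± 0.38 (adjusted p = 0.0123), and vehicle set 2 averaged 125 ± 24.1 FPKM (SD, n = 5), beside the Ceapin-A7 level. Derl3, a Derlin of the pathway that carries misfolded proteins out of the ER, was at 73.3, 26.2, 5.19, 29.1 and 16.9 FPKM against 0.64, 0.87, 0.54, 0.87 and 0.75 FPKM. It had the largest difference of any gene called higher, 3.75 ± 0.50 (adjusted p = 0.00276), and every tunicamycin library lay above every Ceapin-A7 library. Sdf2l1, a partner of the BiP co-chaperones, was at 181, 57.9, 22.7, 64.6 and 43.8 FPKM against 6.64, 7.09, 9.61, 7.81 and 6.25 FPKM, a difference of 2.82 ± 0.41 (adjusted p = 0.00538). Hsp90b1, the ER member of the HSP90 family, was at 947, 388, 221, 362 and 303 FPKM against 147, 154, 152, 149.9 and 149 FPKM. Its difference was 1.37 ± 0.30 (adjusted p = 0.034), with the same library highest and the same library lowest as for Hspa5. Creld2, another ER-resident stress protein, was at 155, 55.4, 26.3, 59.2 and 40.1 FPKM against 13.2, 16.3, 15.2, 14.3 and 12.7 FPKM (1.89 ± 0.36, adjusted p = 0.02).

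The remaining called members of the list were Hyou1, Manf, Herpud1, Dnajc3, Sel1l and the disulfide isomerase genes P4hb, Pdia3, Pdia4 and Pdia6, with differences from 0.54 to 1.67. The lectin chaperones Calr and Canx did not pass, at 1.01 ± 0.27 (adjusted p = 0.0557) and 0.61 ± 0.18 (adjusted p = 0.0703), although all 5 tunicamycin libraries exceeded all 5 Ceapin-A7 libraries for each. In all, 19 of the 22 members had groups that did not overlap, tunicamycin above, against 870 (6.8%) of all genes tested. All 22 had a positive difference under each of the 3 scalings. How many passed moved with the libraries. The count was 18 without tunicamycin library 1 and 21 without library 3, but 4, 3 and 10 without tunicamycin library 2, 4 or 5. It was 3, 3, 4, 4 and 3 without Ceapin-A7 library 1, 2, 3, 4 or 5, and 1 without both libraries 4 and 5. Derl3 was the member that passed in all 25 alternative fits, while the adjusted p of Hspa5 ran from 1.73e-05 to 0.0996 over them and missed the threshold in the fit without Ceapin-A7 libraries 4 and 5.

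**Figure D3:**
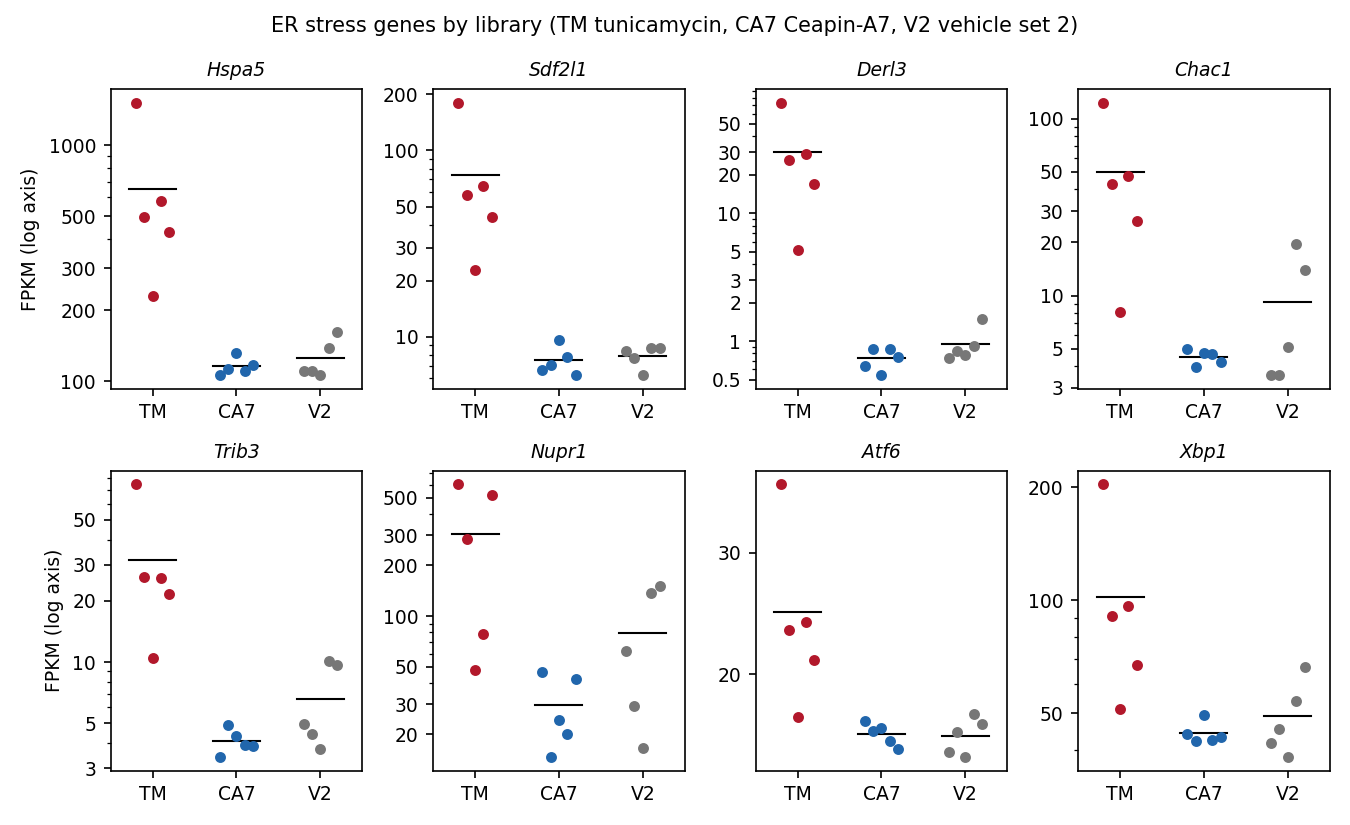
FPKM on a log axis of 8 ER stress genes in each library of tunicamycin (TM), Ceapin-A7 (CA7) and vehicle set 2 (V2), with points in the order of the library numbers from left to right and a black line at each group's mean. Tunicamycin library 1 is the highest and library 3 the lowest tunicamycin point in each of the 8 panels, and Atf6 shows the smallest gap between the groups.

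The genes of the sensors themselves differed less. Atf6 was at 37.6, 23.2, 17.3, 23.8 and 21 FPKM with tunicamycin and at 17.1, 16.5, 16.7, 16 and 15.6 FPKM with Ceapin-A7, so the groups did not overlap, yet tunicamycin library 3, at 17.3 FPKM, stood next to Ceapin-A7 library 1, at 17.1 FPKM. The difference of 0.51 ± 0.15 did not pass (adjusted p = 0.0773), and vehicle set 2 was at 16.3 ± 0.984 FPKM (SD, n = 5), close to the Ceapin-A7 mean of 16.4 ± 0.601 FPKM (SD, n = 5). The Ceapin-A7 target is the ATF6 protein, and no protein was measured here. Atf6b, the related gene, differed by 0.13 ± 0.06 (adjusted p = 0.217), and the Golgi protease genes Mbtps1 and Mbtps2 by -0.00 ± 0.04 and 0.03 ± 0.06 (adjusted p = 0.962 and 0.749). Ern1 was at 13.5, 10.8, 9.18, 11.2 and 10.6 FPKM against 8.77, 8.24, 8.38, 8.53 and 8.36 FPKM and rose by 0.34 ± 0.08 (adjusted p = 0.0374). Its groups did not overlap, though it passed in 11 of the 25 alternative fits. Xbp1 was at 203, 90.8, 51.5, 96.4 and 67.5 FPKM against 44.2, 42.2, 49.5, 42.6 and 43.4 FPKM. It too had groups that did not overlap, with a difference of 1.02 ± 0.28 that did not pass (adjusted p = 0.0623), and these gene-level values do not separate spliced from unspliced Xbp1. Eif2ak3 and Atf4 differed by 0.48 ± 0.13 and 0.68 ± 0.19 (adjusted p = 0.06 and 0.059), again without overlap of the groups. Of 14 sensors and regulators, 3 rose and 0 fell, with a median of 0.24; the other called members were Creb3l2, an ER-anchored transcription factor, at 0.48 and Wfs1, the ER membrane protein wolframin, at 0.49. The count of 3 became 7 without tunicamycin library 1 or 3, 1 without Ceapin-A7 library 4, and 0 without any other single library.

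Among targets of the IRE1 and XBP1 arm and genes of the secretory route fewer members passed the test. Of 24 genes in the IRE1, XBP1 and ER translocation list 8 rose and 0 fell, with a median of 0.41. Dnajb9, a BiP co-chaperone, was at 139.7, 67.3, 28, 74 and 53.5 FPKM against 22.1, 20.6, 19.5, 20.3 and 19.5 FPKM, a difference of 1.6 ± 0.31 (adjusted p = 0.0227), and the groups did not overlap. Edem1, which directs misfolded glycoproteins to degradation, Kdelr3, a retrieval receptor for ER proteins, and Sec24d, a cargo adaptor of COPII vesicles, rose by 0.82 ± 0.16, 0.95 ± 0.16 and 0.98 ± 0.20 (adjusted p = 0.0208, 0.0115 and 0.0267). The count of 8 became 16, 3, 21, 1 and 5 without tunicamycin library 1, 2, 3, 4 or 5, then 1, 1, 3, 2 and 2 without Ceapin-A7 library 1, 2, 3, 4 or 5, and 0 without Ceapin-A7 libraries 4 and 5. Of 20 genes of ER-associated degradation 2 rose, Derl1 by 0.68 and Derl2 by 0.59, and the list's median was 0.09. Of 22 COPII and COPI genes 3 rose, with a median of 0.23: Surf4, a cargo receptor, by 0.57, Copb1, a coat subunit, by 0.26, and Lman1, a lectin cargo receptor, by 0.22.

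Transcripts of the enzyme that tunicamycin blocks and of its pathway were also compared. Dpagt1 was at 22.2, 12.6, 9.08, 13.5 and 12.9 FPKM with tunicamycin and at 7.49, 8.19, 8.61, 9.2 and 8.28 FPKM with Ceapin-A7. Only tunicamycin library 3 fell inside the Ceapin-A7 range, and the difference of 0.64 ± 0.17 did not pass (adjusted p = 0.0569). Of 33 genes of N-glycosylation and hexosamine synthesis 3 rose and 0 fell, with a median of 0.20. Magt1 and Stt3a, parts of the oligosaccharyltransferase that moves the finished glycan onto proteins, rose by 1.08 ± 0.23 and 0.73 ± 0.16 (adjusted p = 0.0328 and 0.0305). Gnpnat1, an enzyme of UDP-N-acetylglucosamine synthesis, rose by 0.44 ± 0.10 (adjusted p = 0.0408). The counts for degradation, vesicle coats and N-glycosylation were 4, 13 and 17 without tunicamycin library 3 and 4, 7 and 9 without library 1. Each was 0 without tunicamycin library 2 or 4 or any single Ceapin-A7 library, and without tunicamycin library 5 they were 0, 1 and 0.

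Of the 41 lists, the PERK and ATF4 list held the largest share of called genes. Of its 18 tested members, of 20, 15 rose and 0 fell, and the median difference was 1.63. Chac1 was at 123, 42.9, 8.12, 47.6 and 26.5 FPKM with tunicamycin and at 5.0, 3.95, 4.75, 4.69 and 4.2 FPKM with Ceapin-A7. The groups did not overlap, but library 3 was close to the Ceapin-A7 level while library 1 was more than 2-fold above every other library, and the difference was 2.74 ± 0.52 (adjusted p = 0.0205). Trib3, a pseudokinase that dampens AKT and ATF4 signals, was at 74.7, 26.2, 10.4, 25.8 and 21.5 FPKM against 3.41, 4.9, 4.32, 3.91 and 3.86 FPKM, a difference of 2.41 ± 0.38 (adjusted p = 0.00698). Eif4ebp1, a repressor of cap-dependent translation, was at 40.2, 16.2, 5.64, 12.8 and 14.5 FPKM against 1.62, 1.36, 2.83, 1.94 and 1.88 FPKM (2.46 ± 0.37, adjusted p = 0.00621). For both genes every tunicamycin library exceeded every Ceapin-A7 library. Nupr1 was at 601, 284, 48.2, 78.8 and 519.7 FPKM against 46.7, 14.7, 24.3, 20.2 and 42.4 FPKM, where tunicamycin library 3 was little above the highest Ceapin-A7 library. Its difference was 2.86 ± 0.67 (adjusted p = 0.0405), and it passed in 13 of the 25 alternative fits. The order of its tunicamycin libraries was that of the lens gene Cryaa, and the part of lens RNA in it was not tested. In vehicle set 2 Nupr1 averaged 79.3 ± 61.8 FPKM (SD, n = 5), with libraries 4 and 5 at 137 and 151 FPKM. Ddit3, which encodes the transcription factor CHOP, was at 343, 138, 63.9, 135 and 117 FPKM against 44.3, 44.5, 39.3, 44 and 43.2 FPKM (1.65 ± 0.33, adjusted p = 0.0247), without overlap. Gdf15, a stress-induced hormone, rose by 2.04 ± 0.39 (adjusted p = 0.0201) from a level below 1 FPKM in every Ceapin-A7 library. As for Nupr1, its tunicamycin libraries were in the order of Cryaa. Libraries 1 to 5 of vehicle set 2 had Gdf15 at 0.62, 0.32, 0.48, 3.35 and 4.43 FPKM.

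Vehicle set 2 was itself uneven for several of these genes, and its mean was 9.16 ± 7.29 FPKM (SD, n = 5) for Chac1, 6.59 ± 3.06 for Trib3 and 7.05 ± 7.03 for Eif4ebp1, higher than the Ceapin-A7 means of 4.52 ± 0.43, 4.08 ± 0.56 and 1.93 ± 0.555. The median of the PERK and ATF4 list was taken relative to the Ceapin-A7 mean. It was 0.07, 0.05, -0.02, 0.78 and 1.04 in libraries 1 to 5 of vehicle set 2, and 0.60 in tunicamycin library 3. The count of 15 became 16 without tunicamycin library 1, 18 without library 3, and 7, 8 and 13 without libraries 2, 4 and 5. It became 6, 6, 10, 8 and 6 without Ceapin-A7 library 1, 2, 3, 4 or 5, and 2 without both libraries 4 and 5. The 2 members that passed in all 25 alternatives were Cebpb, a transcription factor gene, and Ero1a, the oxidase that recharges protein disulfide isomerase. Cebpb was at 13.2, 8.57, 5.47, 7.58 and 6.63 FPKM against 1.89, 2.75, 3.03, 3.32 and 2.1 FPKM (1.33 ± 0.19, adjusted p = 0.00502). Ero1a was at 21.6, 20.9, 22.2, 20.8 and 20.2 FPKM against 13.7, 13.4, 14.3, 13.7 and 13.9 FPKM (0.58 ± 0.04, adjusted p = 1.08e-05). Its tunicamycin libraries lay close together, with library 3 the highest, unlike those of Chac1 or Trib3.

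Some genes of amino acid supply passed the test. Of 13 tested genes of amino acid and one-carbon synthesis 5 rose and 0 fell, with a median of 1.12. Mthfd2, a mitochondrial folate enzyme, was at 86.2, 27.8, 7.66, 30.8 and 15.9 FPKM against 5.71, 4.76, 6.06, 5.54 and 5.87 FPKM (1.98 ± 0.47, adjusted p = 0.0416). Asns was at 203, 75.2, 30.2, 84.1 and 53.3 FPKM against 24.5, 22.9, 24.2, 25.9 and 24.9 FPKM (1.54 ± 0.38, adjusted p = 0.0444). In both, tunicamycin library 3 stood just above the Ceapin-A7 libraries. The other called members were Aldh1l2, Phgdh and Shmt2, at 1.65, 1.49 and 1.12. Phgdh had the library order of the lens gene Cryaa within both groups, and the part of lens RNA in it was not tested. Of 10 tested amino acid transporters 2 rose, with a median of 1.2. Slc7a3, a transporter of cationic amino acids, was at 44.2, 15.2, 2.56, 18.6 and 13.8 FPKM against 2.35, 2.33, 2.67, 2.24 and 2.57 FPKM (2.13 ± 0.50, adjusted p = 0.0416). Here library 3 fell inside the Ceapin-A7 range, so the groups overlapped although the gene passed. Slc1a4, a neutral amino acid transporter, rose by 1.77 ± 0.40 (adjusted p = 0.0374). Of 20 cytosolic aminoacyl-tRNA synthetase genes 2 rose, Sars by 0.63 and Rars by 0.29, with a median of 0.63. Without tunicamycin library 3 these counts were 11, 9 and 14, and without library 1 they were 10, 4 and 11. Without tunicamycin library 2, 4 or 5 or any single Ceapin-A7 library they were 0, 0 and at most 1. Relative to the Ceapin-A7 mean, the synthesis list's median was 0.03, -0.08, -0.07, 0.46 and 0.56 in libraries 1 to 5 of vehicle set 2. That of the transporters was 0.02, -0.02, 0.02, 0.50 and 0.75. In tunicamycin library 3 these medians were 0.19 and -0.06.

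The spread among the tunicamycin libraries was common to these genes. Library 1 was the highest and library 3 the lowest in 14 of the 14 called ER chaperone genes and in 8 of the 8 called IRE1 and XBP1 genes. In the 15 called PERK and ATF4 genes library 1 was the highest in 13 and library 3 the lowest in 12. The median of the ER chaperone list, relative to the Ceapin-A7 mean, was 2.18, 1.09, 0.35, 1.09 and 0.94 in tunicamycin libraries 1 to 5, and that of the PERK and ATF4 list was 2.65, 1.62, 0.60, 1.57 and 1.18. In the Ceapin-A7 libraries both list medians lay within 0.1 of 0. The median range over the 5 tunicamycin libraries was 2.39 for the called ER chaperone genes and 2.41 for the called PERK and ATF4 genes, against 0.24 and 0.42 over the Ceapin-A7 libraries. Tunicamycin library 1 also had the most lens RNA (Cryaa at 6234 FPKM) and library 3 the least (0.97 FPKM). The libraries between did not share that order. Libraries 2, 4 and 5 had Cryaa at 2656, 52 and 2737 FPKM, with ER chaperone medians of 1.09, 1.09 and 0.94. Library 3 had the lowest Ddx3y, at 9.84 FPKM against 13.6 to 17.0 in the other 4. With the mean lens level as a covariate 885 genes were called, 19 of them in the ER chaperone list; whether lens tissue, the sex of the tissue or the injected amount has a part in the spread was not tested.

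**Figure D4:**
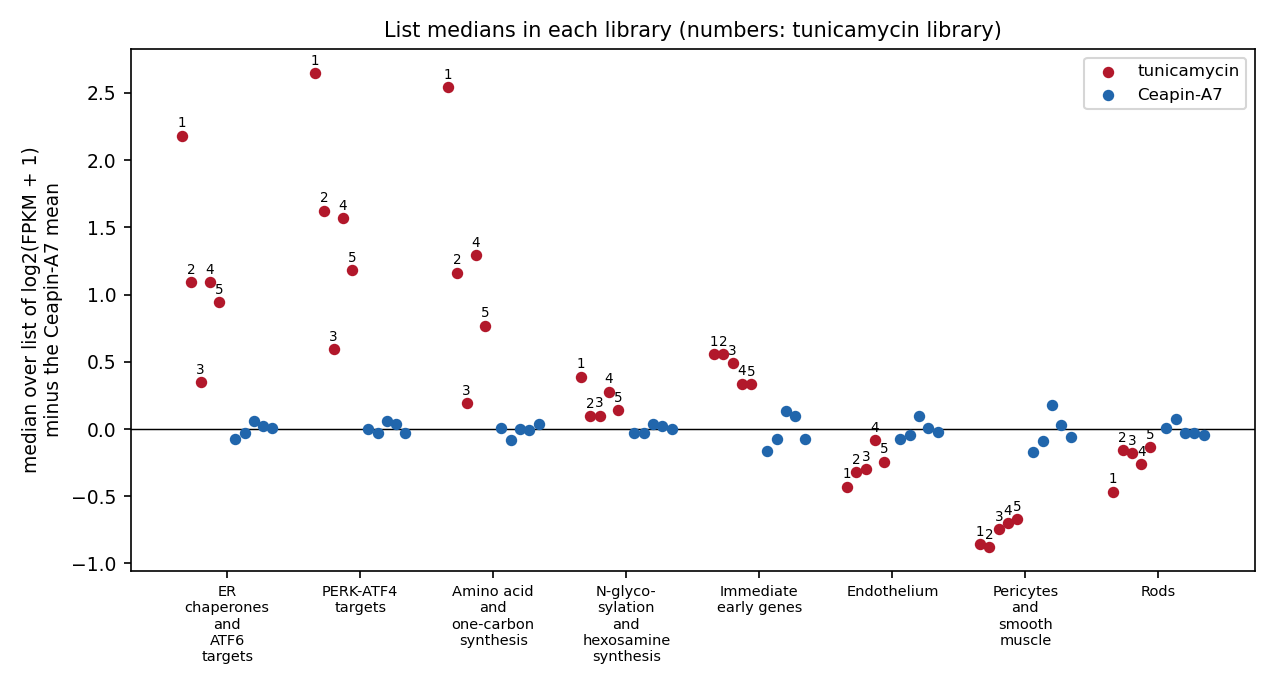
Each point is the median over a list of the log2(FPKM + 1) difference of 1 library from the Ceapin-A7 mean, with the list on the x axis and the tunicamycin library number above its point. The tunicamycin points of the ER chaperone list run from 0.35 to 2.18, whereas those of the pericyte list lie between -0.88 and -0.67.

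Immediate early genes, which are transcribed within minutes of a signal, were higher with tunicamycin and followed that order only in part. Of 17 tested 10 rose and 0 fell, with a median of 0.46. Ccn1, a matrix protein that signals through integrins, was at 10.4, 15.9, 11.9, 10.1 and 11.8 FPKM against 1.86, 2.11, 3.12, 2.56 and 2.13 FPKM (1.95 ± 0.13, adjusted p = 1.13e-05). Ccn2, its relative, was at 20.1, 28.4, 18.3, 23.6 and 25.3 FPKM against 8.02, 9.2, 12.1, 9.51 and 10.8 FPKM (1.14 ± 0.12, adjusted p = 0.000668). The groups did not overlap for either. Fos, a component of the AP-1 factor, was at 28.3, 41, 23.6, 29.4 and 27.2 FPKM against 12, 15.1, 14.2, 17.4 and 14.7 FPKM (0.97 ± 0.13, adjusted p = 0.00318). Tunicamycin library 2 was the highest in 6 of the 10 called genes and library 1 in 2. Library 3 was the lowest in 5 of the 10 and library 1 in 0. Dusp1, Egr1, Fosb, Fosl2, Jun, Klf6 and Nr4a1 were the others called, with differences from 0.43 to 0.97. In vehicle set 2 Fos averaged 23.2 ± 5.93 FPKM (SD, n = 5) and Egr1 24.7 ± 9.44 FPKM (SD, n = 5), between the Ceapin-A7 means of 14.7 ± 1.93 and 16 ± 4.76 and the tunicamycin means of 29.9 ± 6.57 and 30.3 ± 7.2. Relative to the Ceapin-A7 mean, the list's median was 0.29, -0.04, 0.07, 0.61 and 0.56 in libraries 1 to 5 of vehicle set 2. With tunicamycin that median ran from 0.33 to 0.56. The count of 10 ran from 6, without Ceapin-A7 library 5, to 11, and was 5 without Ceapin-A7 libraries 4 and 5. Ccn1, Ccn2, Fos and Nr4a1 passed in all 25 alternatives.

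Signals that act on vessels were among the differences of smallest p. Of 17 tested angiogenic ligands, receptors and tip cell genes 6 rose and 3 fell, with a median of 0.02. Edn1, which encodes the vasoconstrictor peptide endothelin 1, was at 9.19, 12.6, 11, 12.9 and 10.8 FPKM with tunicamycin and at 1.27, 1.19, 1.7, 1.36 and 1.73 FPKM with Ceapin-A7. Every tunicamycin library was more than 5-fold above every Ceapin-A7 library, the difference was 2.33 ± 0.10 (adjusted p = 6.99e-07), and vehicle set 2 averaged 1.56 ± 0.268 FPKM (SD, n = 5). Apln, the ligand of the apelin receptor, was at 2.63, 4.31, 5.97, 5.0 and 4.84 FPKM against 0.63, 0.36, 0.52, 0.49 and 0.42 FPKM (1.87 ± 0.15, adjusted p = 5.11e-05). Angpt2, a ligand of the receptor encoded by Tek, was at 3.04, 3.21, 3.62, 3.47 and 3.92 FPKM against 0.93, 1.05, 1.09, 1.17 and 1.19 FPKM (1.09 ± 0.07, adjusted p = 1.05e-05). In these 3 genes the lowest tunicamycin library was library 1, the library with the highest ER chaperone levels, as it was in 5 of the 6 called higher. Vegfa, the main vascular growth factor of the retina, was at 139, 112, 122, 117 and 108 FPKM against 72.4, 66.5, 68, 64.5 and 61.6 FPKM (0.83 ± 0.07, adjusted p = 8.08e-05). Pdgfb, which recruits pericytes, and Igfbp3, an IGF-binding protein, rose by 0.75 ± 0.09 and 0.88 ± 0.15 (adjusted p = 0.00134 and 0.00905). The 3 genes that fell encode receptors of endothelial cells. Flt1 was at 9.14, 11.1, 10.8, 10.7 and 9.42 FPKM against 15.8, 16.3, 16.1, 14.8 and 16.6 FPKM (-0.59 ± 0.06, adjusted p = 0.000306). Tek was at 0.78, 0.91, 1.03, 1.13 and 1.22 FPKM against 2.05, 2.35, 2.84, 2.17 and 2.35 FPKM (-0.73 ± 0.08, adjusted p = 0.000841), and Tie1 fell by 0.53 ± 0.12 (adjusted p = 0.0374). Kdr, the main signalling receptor for Vegfa, differed by -0.06 ± 0.16 (adjusted p = 0.836). The 6 higher calls stood at 6 without any single library, and were 5 without Ceapin-A7 libraries 4 and 5. The 3 lower calls were 2 without tunicamycin library 2 or 5, without any single Ceapin-A7 library and without Ceapin-A7 libraries 4 and 5. With a minimum mean of 5 FPKM the calls were 2 higher and 1 lower.

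Of 14 tested genes of the hypoxia response 4 rose and 0 fell, with a median of 0.19. Adm, which encodes the vasodilator adrenomedullin, was at 2.45, 2.05, 3.52, 3.25 and 3.06 FPKM against 0.46, 0.53, 0.57, 0.45 and 0.34 FPKM (1.38 ± 0.11, adjusted p = 4.80e-05), without overlap. P4ha1, a collagen prolyl hydroxylase, rose by 0.40 ± 0.06 (adjusted p = 0.00827) and Pdk1, an inhibitor of pyruvate dehydrogenase, by 0.41 ± 0.10 (adjusted p = 0.0408), though the Pdk1 call was lost without tunicamycin library 2, 4 or 5 or any single Ceapin-A7 library. The fourth was Vegfa, which stands in both lists. Other members known to be raised by low oxygen did not pass, among them Slc2a1 at 0.06 ± 0.08, Bnip3 at 0.27 ± 0.18 and Egln3 at 0.10 ± 0.08 (adjusted p = 0.622, 0.357 and 0.418).

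Endothelial genes moved in both directions. Of 24 tested members of the endothelium list 10 fell and 4 rose, and the median was -0.27. Ly6c1, a surface protein of brain and retinal endothelium, was at 2.84, 2.71, 4.93, 3.69 and 2.34 FPKM with tunicamycin and at 16.6, 20.6, 21.4, 21.6 and 22.1 FPKM with Ceapin-A7. It had the largest difference among the genes called lower, -2.34 ± 0.14 (adjusted p = 1.05e-05), the groups did not overlap, and vehicle set 2 was at 20.1 ± 3.14 FPKM (SD, n = 5). Ly6a, of the same family, was at 3.07, 2.71, 4.9, 5.52 and 3.64 FPKM against 16.2, 13.9, 17.3, 17.4 and 16.7 FPKM (-1.83 ± 0.14, adjusted p = 5.11e-05). Ly6c1 has a close paralog, and the sources used here do not say how reads shared by such copies were counted. Cldn5, a claudin that seals the junctions between endothelial cells, was at 4.81, 4.62, 7.29, 7.02 and 5.38 FPKM against 12.7, 13.7, 16.5, 16.9 and 13.4 FPKM (-1.21 ± 0.12, adjusted p = 0.000463). Sox17, a transcription factor gene of arterial endothelium, was at 0.47, 0.51, 0.39, 0.67 and 0.49 FPKM against 1.27, 1.35, 1.61, 1.52 and 1.41 FPKM (-0.69 ± 0.07, adjusted p = 0.00046). The groups did not overlap. The barrier transporters Mfsd2a and Slco1a4 and the adhesion gene Esam fell by smaller amounts, with differences of -0.48, -0.43 and -0.29; Flt1, Tek and Tie1, described above, are the other called members.

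In the same libraries Robo4, a guidance receptor of endothelium, was at 3.66, 3.77, 3.57, 4.07 and 4.1 FPKM against 1.41, 1.01, 1.41, 1.24 and 1.11 FPKM (1.11 ± 0.07, adjusted p = 1.05e-05), so every tunicamycin library was more than 2-fold above every Ceapin-A7 library. Eng, a co-receptor for TGF-beta ligands, was at 5.71, 7.05, 6.57, 6.82 and 6.53 FPKM against 3.37, 3.77, 4.75, 3.34 and 3.45 FPKM (0.68 ± 0.08, adjusted p = 0.0015). Cdh5, which encodes VE-cadherin, and Egfl7, a secreted endothelial protein, rose by 0.53 ± 0.09 and 0.55 ± 0.09 (adjusted p = 0.0146 and 0.00776). Pecam1, a general endothelial marker, was at 4.07, 3.4, 5.09, 4.99 and 4.1 FPKM against 3.51, 4.35, 4.39, 4.81 and 4.5 FPKM. Its difference of -0.00 ± 0.10 (adjusted p = 0.999) was smaller than its SE, and the groups overlapped. The summed level of the 25 listed endothelial genes was 265.8 to 318.9 FPKM with tunicamycin and 316.7 to 360.0 FPKM with Ceapin-A7. The 4 higher calls stood without any single library, and 2 remained without Ceapin-A7 libraries 4 and 5. The 10 lower calls became 7 to 12 without single libraries and 6 without those 2.

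Several pericyte genes were lower. Of 10 tested genes of pericytes and smooth muscle, of 15 listed, 6 fell and 0 rose, the median was -0.74, and all 10 differences were negative under each of the 3 scalings. Of the 6, Abcc9, Higd1b, Kcnj8 and Notch3 passed the minimum level only through the Ceapin-A7 libraries, so the count and the median are a description. With no minimum level 8 genes of the list fell, and with a minimum mean of 5 FPKM 2 fell. Rgs5, a regulator of G protein signalling that marks pericytes, was at 4.55, 4.5, 6.62, 5.61 and 5.23 FPKM with tunicamycin and at 19, 19.6, 20.7, 20.5 and 19 FPKM with Ceapin-A7. The highest tunicamycin library was below 7 FPKM and the lowest Ceapin-A7 library above 18 FPKM, a difference of -1.73 ± 0.08 (adjusted p = 1.90e-06), with vehicle set 2 at 17.6 ± 2.02 FPKM (SD, n = 5). Higd1b, a mitochondrial protein of pericytes, was at 0.27, 0.27, 0.51, 0.45 and 0.23 FPKM against 1.28, 2.82, 4.54, 2.84 and 2.21 FPKM (-1.42 ± 0.19, adjusted p = 0.00288). Abcc9 and Kcnj8 encode the subunits of the pericyte potassium channel that closes when ATP is high. Abcc9 was at 0.46, 0.33, 0.37, 0.36 and 0.36 FPKM against 1.06, 1.32, 1.47, 1.35 and 1.25 FPKM (-0.73 ± 0.07, adjusted p = 0.00021). Kcnj8 was at 0.28, 0.34, 0.69, 0.48 and 0.54 FPKM against 1.04, 1.33, 1.49, 1.98 and 1.7 FPKM (-0.77 ± 0.11, adjusted p = 0.00527). The groups did not overlap for either channel gene. Notch3, the receptor of mural cells, was at 0.34, 0.31, 0.43, 0.53 and 0.54 FPKM against 1.35, 1.21, 1.87, 1.38 and 1.29 FPKM, without overlap, a difference of -0.76 ± 0.09 (adjusted p = 0.000961). Myl9, a light chain of smooth muscle myosin, differed by -1.31 ± 0.29 (adjusted p = 0.035), and its Ceapin-A7 mean was raised by library 3, at 33.6 FPKM against 9.79 to 12.1 FPKM in the other 4. Its call was lost without tunicamycin library 2 or 4 or Ceapin-A7 library 1, 2 or 5.

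Pdgfrb, which defines pericytes, was at 4.21, 3.12, 3.14, 3.81 and 4.06 FPKM against 3.72, 3.82, 4.39, 4.16 and 4.37 FPKM, so the groups overlapped, and its difference of -0.13 ± 0.08 did not pass (adjusted p = 0.307). The contractile genes Acta2 and Tagln differed by -0.51 ± 0.49 and -0.60 ± 0.42 (adjusted p = 0.515 and 0.373). The 6 lower calls became 5 to 7 without single libraries and 4 without Ceapin-A7 libraries 4 and 5. The median range over the tunicamycin libraries was 0.35 for the called pericyte genes and 0.40 for the endothelial genes called lower, far below that of the ER chaperone genes.

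**Figure D5:**
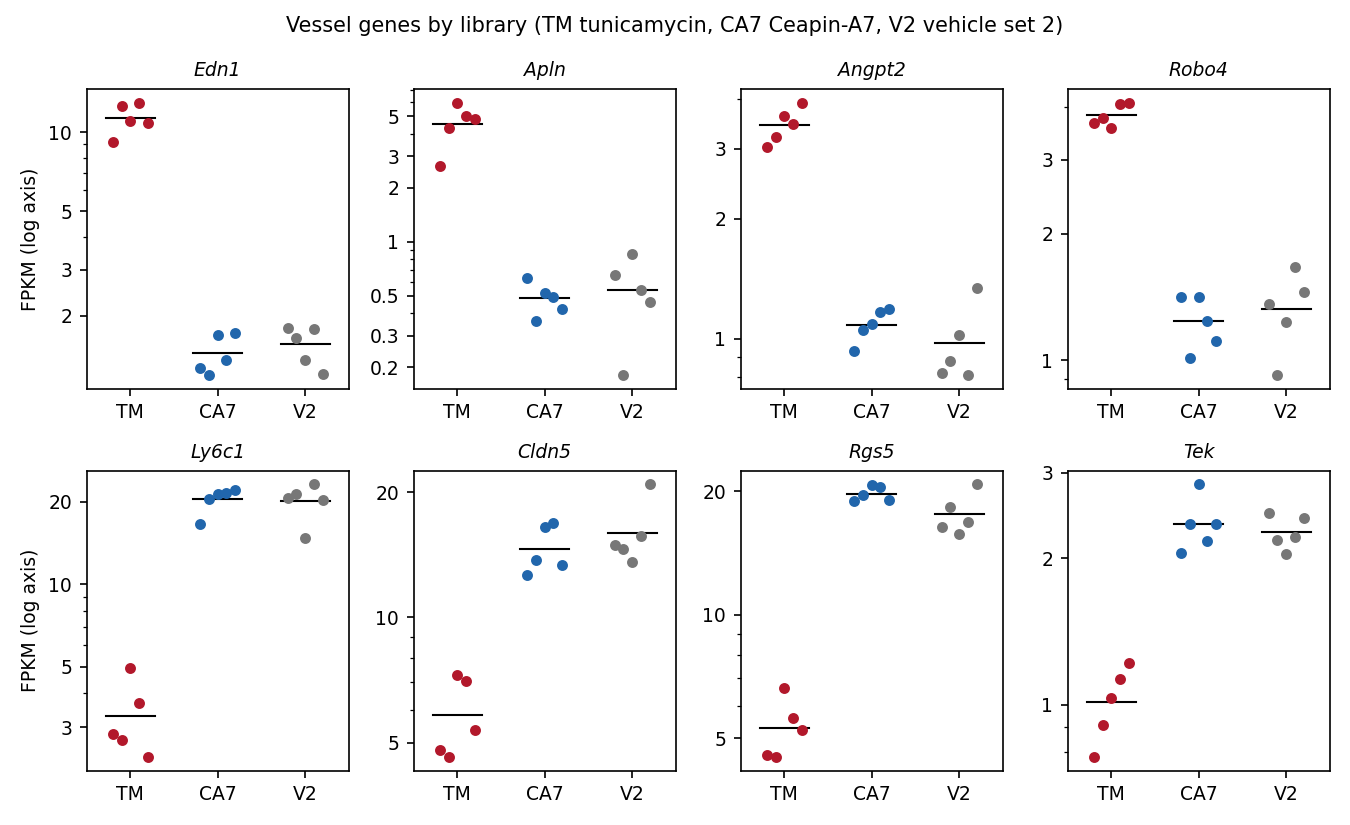
FPKM on a log axis of 8 vessel genes in each library of tunicamycin (TM), Ceapin-A7 (CA7) and vehicle set 2 (V2), with points in the order of the library numbers and a black line at each group's mean. In each of the 8 panels the 5 tunicamycin libraries lie apart from the other 10, higher for Edn1, Apln, Angpt2 and Robo4 and lower for Ly6c1, Cldn5, Rgs5 and Tek.

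Few neuronal and glial genes passed the test. Of 23 rod genes 3 fell and 0 rose, and the median was -0.22. At an unadjusted limma p under 0.05 there were 18, all of them lower, where 1203 of all 12786 genes were lower. The groups did not overlap, tunicamycin below, in 14, against 345 (2.7%) of all genes tested. All 23 differences were negative, 22 of them after quantile scaling. Nr2e3, a rod transcription factor gene, was at 247, 302, 287, 269.9 and 257 FPKM against 376, 417, 346, 333 and 321 FPKM (-0.39 ± 0.08, adjusted p = 0.0288). Guca1a, an activator of guanylate cyclase, and Cngb1, a subunit of the rod channel, differed by -0.37 ± 0.07 and -0.26 ± 0.06 (adjusted p = 0.0232 and 0.0367). The 3 lower calls became 5, 9 and 0 without tunicamycin library 1, 3 or 4, and 2 without library 5. They became 1, 0, 1, 1 and 1 without Ceapin-A7 library 1, 2, 3, 4 or 5. In vehicle set 2 Guca1a averaged 807 ± 137 FPKM (SD, n = 5), below its Ceapin-A7 mean of 958 ± 58.1 FPKM. Relative to the Ceapin-A7 mean, the rod list's median was -0.12, 0.01, 0.05, -0.44 and -0.40 in libraries 1 to 5 of vehicle set 2. With tunicamycin that median ran from -0.47 to -0.13, so vehicle libraries 4 and 5 were within the lower part of this range. No cone, bipolar or horizontal cell gene of 14, 17 and 7 tested was called by limma, with medians of -0.08, -0.14 and -0.04. At an unadjusted limma p under 0.05 there were 1, 6 and 0 of them, where 3390 of all 12786 genes passed. Among 16 amacrine, 19 ganglion and 18 Muller glia genes 1 was lower with tunicamycin than with Ceapin-A7 in each list. These were Prdm13, an amacrine transcription factor gene, by 0.41 ± 0.10, Nefh, a neurofilament gene, by 0.38 ± 0.09 and Dkk3, a secreted glial protein, by 0.35 ± 0.09 (adjusted p = 0.044, 0.0393 and 0.0477). Each of these 3 calls was lost without tunicamycin library 2 or 4 and in most fits without 1 Ceapin-A7 library. Dkk3 averaged 240 ± 44.8 FPKM (SD, n = 5) in vehicle set 2, near its tunicamycin mean of 232 FPKM and below its Ceapin-A7 mean of 294 FPKM. The Muller glia markers Glul and Rlbp1 differed by -0.48 ± 0.23 and -0.31 ± 0.25 (adjusted p = 0.213 and 0.447), with tunicamycin library 1 the lowest for each.

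Of 18 genes of reactive gliosis 3 rose and 0 fell, with a median of 0.40: Cebpd by 1.29 ± 0.30, Osmr by 0.68 ± 0.17 and Cd44 by 0.48 ± 0.10 (adjusted p = 0.0392, 0.044 and 0.0328). The 3 calls were all lost without tunicamycin library 2 or any single Ceapin-A7 library. Gfap, the intermediate filament that marks reactive glia, differed by -0.14 ± 0.40 (adjusted p = 0.843). In vehicle set 2 the 3 called genes averaged 22.9 ± 17.4, 6.14 ± 3.39 and 7.97 ± 5.12 FPKM (SD, n = 5), above both compounds' means for Osmr, Cd44 and Cebpd. No gene was called by limma among 16 microglial and macrophage genes or 20 interferon and antigen presentation genes, with medians of -0.15 and -0.12. At an unadjusted limma p under 0.05 there were 0 and 2 of them, where 3390 of all 12786 genes passed. The 8 neutrophil genes were below the level tested. Of 5 tested cytokine and adhesion genes Icam1, a leukocyte adhesion molecule, was at 1.78, 1.71, 2.23, 2.09 and 2.28 FPKM against 0.65, 0.7, 0.76, 0.92 and 0.92 FPKM (0.75 ± 0.08, adjusted p = 0.00049), without overlap, and Cxcl12 fell by 0.49 ± 0.11 (adjusted p = 0.0391), a call lost without tunicamycin library 2, 4 or 5 or Ceapin-A7 library 1, 2, 3 or 5. Libraries 1 to 5 of vehicle set 2 had Icam1 at 1.05, 0.59, 0.6, 2.29 and 1.49 FPKM.

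Few genes of other stress pathways passed. Of 17 cytosolic heat shock, 25 proteasome, 21 sterol synthesis and 28 ribosomal protein genes 0 were called by limma in either direction, with medians of -0.11, -0.11, -0.17 and -0.01. At an unadjusted p under 0.05 there were 4, 4, 12 and 2 of them, where 3390 of all 12786 genes passed. The 12 sterol genes included 11 that were lower, and without tunicamycin library 3 the adjusted test called 2, 7, 10 and 1 genes of the 4 lists lower. Of 19 NRF2 targets 2 rose, with a median of -0.02: Hmox1, heme oxygenase 1, by 1.5 ± 0.32 and Sqstm1, the autophagy receptor p62, by 0.39 ± 0.09 (adjusted p = 0.0328 and 0.0374). Both calls were lost without tunicamycin library 2 or 4 or Ceapin-A7 library 1, 2, 4 or 5. Of 15 tested genes of apoptosis and p53 2 rose, with a median of 0.09. Cdkn1a, the cell cycle inhibitor p21, was at 21.6, 14.8, 7.71, 17 and 13 FPKM against 2.99, 3.98, 4.2, 4.18 and 4.55 FPKM (1.61 ± 0.21, adjusted p = 0.00244), without overlap. Libraries 1 to 5 of vehicle set 2 had Cdkn1a at 3.18, 3.61, 3.6, 15.57 and 22.06 FPKM. Bid, which links death receptors to mitochondria, rose by 0.39 ± 0.07 (adjusted p = 0.0171), a call lost without Ceapin-A7 library 1 and without Ceapin-A7 libraries 4 and 5. Of 18 clock genes 1 rose, Rorb by 0.36 ± 0.08 (adjusted p = 0.0305), with a median of 0.11, and its call was lost without tunicamycin library 2, 4 or 5 or Ceapin-A7 library 1, 2, 3 or 4.

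Tissue that can be carried along with the retina was checked beside these results. Of 19 tested lens genes 0 were called by limma, 0 had an unadjusted p under 0.05, and all 19 were higher on average with tunicamycin (median 0.58, and 0.34 with 17 of 19 higher without Ceapin-A7 libraries 4 and 5), and their summed level was 79.8 to 21200 FPKM with tunicamycin and 225.4 to 12750 FPKM with Ceapin-A7. Of 14 tested pigment epithelium genes 1 fell and 0 rose, with a median of -1.04. At an unadjusted limma p under 0.05, 8 of the 14 were lower and 1 was higher. Over all 12786 genes, 1203 were lower and 2187 higher at that threshold. The summed level of the pigment epithelium list was 178.1 to 436.6 FPKM with tunicamycin and 420.5 to 729.9 FPKM with Ceapin-A7, and no listed gene was at 0 throughout either group. The gene that fell was Ttr, a carrier of thyroid hormone and retinol, at 7.57, 26.3, 17.3, 8.29 and 14.5 FPKM against 91.2, 55.3, 29.3, 57.9 and 121 FPKM (-2.17 ± 0.40, adjusted p = 0.017), while Rpe65, the visual cycle isomerase that defines this epithelium, differed by -1.07 ± 0.35 (adjusted p = 0.0938). The Ttr call was lost without Ceapin-A7 library 1, and the part of the pigment epithelium level in it was not tested. Of 10 tested fibroblast and matrix genes Lama1 rose by 0.90 ± 0.22 (adjusted p = 0.044) and Mgp, an inhibitor of calcification, fell from 15.1, 24.7, 36.3, 29.9 and 26.3 FPKM with Ceapin-A7 to 1.76, 1.68, 10.3, 7.92 and 6.8 FPKM with tunicamycin (-2.23 ± 0.41, adjusted p = 0.0185), with a list median of 0.20. The Mgp call was lost without Ceapin-A7 library 2 or 5, and the Lama1 call without any single library other than tunicamycin library 3. Of 8 ciliary body and iris genes Palmd was lower by 0.51 ± 0.12 (adjusted p = 0.0367), with a list median of -0.19. Its call was lost without tunicamycin library 2, 4 or 5 or Ceapin-A7 library 1, 2, 4 or 5. Palmd averaged 1.77 ± 0.296 FPKM (SD, n = 5) in vehicle set 2, near its tunicamycin mean of 1.65 FPKM and below its Ceapin-A7 mean of 2.81 FPKM. No gene was called by limma or had an unadjusted p under 0.05 among 4 erythrocyte and 4 Y-linked genes, with medians of 0.42 and 1.27, and the 7 cornea genes were below the level tested.

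Several of the largest differences were of genes outside these lists, and which cells they come from was not tested. Pltp, a phospholipid transfer protein, was at 3.29, 4.55, 5.27, 8.54 and 6.64 FPKM with tunicamycin and at 23.9, 21.5, 26, 19 and 25.2 FPKM with Ceapin-A7 (-1.9 ± 0.18, adjusted p = 0.000272). Itm2a, a membrane protein, was at 3.68, 4.9, 4.51, 6.06 and 7.84 FPKM against 14.4, 14.7, 16.6, 15.2 and 14.5 FPKM (-1.36 ± 0.14, adjusted p = 0.00047). Ramp2, the co-receptor for the Adm product, was at 3.09, 2.74, 2.99, 5.71 and 3.73 FPKM against 10.1, 9.18, 11.8, 10.4 and 11 FPKM (-1.33 ± 0.14, adjusted p = 0.000559), so that receptor subunit fell in the libraries in which the ligand gene rose. Pglyrp1, a peptidoglycan recognition protein, fell to below 1 FPKM in every tunicamycin library (-1.35 ± 0.15, adjusted p = 0.000887). Cox8b, a subunit of cytochrome oxidase, was at 2.96, 4.47, 8.15, 17.1 and 12.2 FPKM against 31.8, 25.5, 39.5, 25.8 and 15.4 FPKM, with tunicamycin library 4 inside the Ceapin-A7 range (-1.67 ± 0.39, adjusted p = 0.0397). In vehicle set 2 Cox8b averaged 17.1 ± 7.21 FPKM (SD, n = 5), from 10.05 to 28.3 FPKM, and overlapped both groups. Cdsn, an adhesive protein of cornified skin, was at 11.5, 4.52, 1.1, 2.61 and 7.48 FPKM against 0.33, 0.18, 0.33, 0.44 and 0.31 FPKM (2.03 ± 0.39, adjusted p = 0.0205). Its tunicamycin libraries were in the order of the lens gene Cryaa, and the part of lens RNA in it was not tested. Libraries 1 to 5 of vehicle set 2 had Cdsn at 0.67, 0.35, 0.21, 4.32 and 2.84 FPKM. The first 4 of these genes passed in every alternative fit that tested them, Cdsn in 18 of 24 and Cox8b in 14 of 25, and both of the latter were lost without tunicamycin library 2 or Ceapin-A7 library 1, 2 or 5.

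In total, 63 genes were called in the same direction in every one of the 25 alternative fits that tested them, 36 higher and 27 lower; genes of low level were not tested with the filter at a mean of 5 FPKM. Of the 80 called genes that the naming rule picked, 22 were among them and 29 were called without each single library in turn. Of the 63, 1 was in the ER chaperone list and 2 in the PERK and ATF4 list, against 7 of the angiogenic list, 8 of the endothelium list, 4 of the pericyte list and 4 of the immediate early genes, and Flt1 and Tek count in both the angiogenic and the endothelium list. Of the members counted here, Derl3, Apln, Sox17, Abcc9, Higd1b and Notch3 passed the minimum level only through the group in which they are high. These counts are therefore a description. Serpinh1, the collagen chaperone of the ER, was outside all lists and was named after its values were seen. It was at 36.2, 27.5, 22.5, 28.1 and 33.3 FPKM against 9.02, 7.85, 16.3, 8.09 and 9.52 FPKM (1.48 ± 0.18, adjusted p = 0.00145) and was among the 63.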

How the data were processed

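The authors deposited FPKM values per gene, 1 table per group of 5 libraries, from stranded mRNA libraries of mouse retina. Per the submitters' processing notes HISAT2 2.0.4, RSEM 1.2.18, DESeq2 1.4.5 and GRCm39 were used, with no roles given. The tunicamycin and Ceapin-A7 tables were joined on gene identifier, genes with at least 1 FPKM in 5 or more of the 10 libraries were kept, and log2(FPKM + 1) was fitted with limma 3.58.1 (R 4.3.3) with an intensity trend, two-sided, with Benjamini-Hochberg adjustment over the 12786 genes. FPKM is already scaled to the fragments of each library, so a group of genes that takes a large share of a library lowers the rest. Whole reads could not be recovered, so no count test was run. Replicate numbers did not pair the libraries.

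The comparison, its lists and the tests were chosen with earlier results of these data known. Named are the 12 called genes of largest difference in each direction, up to 4 called members of largest difference per list (the 2 of highest mean level where none was called), fixed genes of the 3 sensor arms and defining cell markers. Further genes (among them Calr, Canx, Flt1, Tek, Tie1, Eng, Sox17, Abcc9, Notch3, Cebpb, Ero1a, Serpinh1 and the members listed to complete a count) were chosen after their values were seen. Alternatives were 2 other pseudocounts, 2 filters, 2 scalings, fits with vehicle set 2 or all 25 libraries, variance weights, a robust prior, a replicate block, Ddx3y or lens level as covariates, each library left out and, added after seeing the data, Ceapin-A7 libraries 4 and 5 left out. Promoter sequences are from RefSeq, build GRCm38.p6, which is not the build of the notes, and were used by gene name. Some results are not reported here.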

Additional observations from a re-analysis of the deposited data

Results flagged for a closer look

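In 224 groups of 5 library values, those of the 112 named genes in both treatments, 15 had a highest or lowest library whose gap to the next exceeded Dixon's critical value of 0.71, where chance flags about 1 in 20. Their causes were not tested. With tunicamycin all 6 were in library 1, which was the highest for Gnpnat1 (16.2 FPKM), Lman1 (63.9 FPKM) and Rars (32.4 FPKM), genes of hexosamine synthesis, vesicle cargo and tRNA charging. It was the lowest for Pcp2 (160.9 FPKM), a bipolar cell gene, Pde6h (184.1 FPKM), a cone gene, and Srebf2 (28.6 FPKM), a regulator of sterol synthesis. With Ceapin-A7, library 3 was the highest for Myl9 (33.6 FPKM), Palmd (4.01 FPKM), Magt1 (3.83 FPKM) and Xbp1 (49.5 FPKM) and the lowest for Ddit3 (39.3 FPKM). Library 1 was the highest for Atf4 (225.8 FPKM) and the lowest for Ly6c1 (16.6 FPKM), which was still above every tunicamycin library. Library 4 was the highest for Sqstm1 (156.6 FPKM) and library 5 the lowest for Pdk1 (13.9 FPKM).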

How the results depend on the processing

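The 595 calls (428 higher, 167 lower) kept their direction in every alternative that tested them, but their number did not hold. Quantile normalization gave 238 higher, and the filter at a mean of 5 FPKM 383 calls in all, 290 higher and 93 lower, from 9879 genes tested. Fits with all 25 libraries gave 1717 (1147 and 570) and weights per library 1495 (1047 and 448). Median-ratio scaling gave 264 higher. The lens covariate gave 885 calls and 276 lower. The Ddx3y covariate left 176 (109 and 67), and leaving out Ceapin-A7 libraries 4 and 5, chosen after seeing the data, left 84 (50 and 34), with 3 libraries in that group. Leaving out single libraries gave 157 to 1889 calls, 97 to 1207 higher and 59 to 682 lower. With the replicate block there were 233 calls (146 and 87), of which 213 were among the 595; same-numbered libraries correlated at 0.44, -0.44, -0.17, 0.30 and 0.28 across genes in their deviations, so the numbers do not pair them. The other settings (pseudocounts, no filter, vehicle set 2 in the fit, robust prior) stayed within 1.5 times the 595. Tunicamycin and Ceapin-A7 each had 5 libraries, and FPKM tables carry no counting error, so depth sets no interval here.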

Other observations

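Among the genes called in every alternative fit that tested them were further vessel genes that no list held and that were picked after their values were seen. Slco1c1, a thyroid hormone transporter of the brain and retinal barrier, was at 1.51, 1.41, 1.34, 2.05 and 1.66 FPKM in tunicamycin libraries 1 to 5 and at 5.31, 5.55, 4.29, 4.71 and 5.02 FPKM in Ceapin-A7 libraries 1 to 5. The difference was -1.21 ± 0.08 (limma, adjusted p = 2.06e-05), without overlap. Nos3, the endothelial nitric oxide synthase gene, was lower as well, with a difference of -0.60 ± 0.08 (adjusted p = 0.00247). Lama4, a laminin chain of vessel basement membrane, was at 2.13, 2.3, 2.29, 3.18 and 2.48 FPKM against 0.77, 0.80, 1.05, 0.93 and 0.87 FPKM, and rose by 0.88 ± 0.08 (adjusted p = 0.000272). Klf2 and Thbd, which shear stress raises in endothelium, were also called lower, with differences of -0.81 ± 0.16 and -0.68 ± 0.14 (adjusted p = 0.0225 and 0.0296), but not in every alternative. Thbd passed the minimum level only through the Ceapin-A7 libraries, so its call is a description. Stra6, the retinol uptake receptor, made by the pigment epithelium among other cells, differed by -0.93 ± 0.14 (adjusted p = 0.00502) and passed in every alternative fit that tested it. The summed level of the pigment epithelium list was lower with tunicamycin too, as given above, and its part in this difference was not tested.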
